A study of Mus musculus with 28 samples.

Results

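Messenger RNA of 4 immune enzymes and 1 amino acid transporter was described in whole subcutaneous AB1-HA tumors of mice. By name, 6 of the 55341 genes counted were chosen, and all 6 were found and passed the filter on low counts. The 5 described here are Nos2, Slc7a2, Gch1, Ido1 and Acod1. AB1-HA is a murine mesothelioma line that carries influenza hemagglutinin, and it was grown on the flank of female BALB/c.AusBP mice aged 8 to 10 weeks. All 28 tumors were harvested 7 days after the start of treatment. The PBS group (n = 4) received vehicle. The ICB group (n = 5) received immune checkpoint blockade, which was anti-CTLA-4 (100 µg) with anti-PD-L1 (100 µg) and 2 additional doses of anti-PD-L1. The 5-FU group (n = 5) received fluorouracil at 75 mg/kg intravenously, and the cisplatin group (n = 4) received cisplatin at 6 mg/kg intraperitoneally. The 5-FU+ICB (n = 5) and cisplatin+ICB (n = 5) groups received a chemotherapy and the antibodies. The study asked how each chemotherapy combined with ICB. The genes were selected on their log2 levels across these groups, so their values are a description and carry no test.

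Immune cells and tumor cells compete for a few amino acids, and the enzymes of Nos2 and Ido1 use arginine and tryptophan. Nos2 encodes the inducible nitric oxide synthase, which turns arginine into nitric oxide and citrulline. Slc7a2 encodes a cationic amino acid transporter that brings arginine into the cell, and Gch1 encodes the first enzyme of the synthesis of tetrahydrobiopterin (BH4), the cofactor of nitric oxide synthases. Ido1 encodes the enzyme that opens the tryptophan ring toward kynurenine, and Acod1 (also called Irg1) encodes the enzyme that makes itaconate from the Krebs cycle intermediate cis-aconitate. In mouse macrophages Nos2, Ido1 and Acod1 are known to be induced by interferon gamma and microbial signals.

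In the GENCODE M21 annotation of the GRCm38 build used by the files, Nos2 lies on chr11:78920787-78960254 (plus strand). Slc7a2 lies on chr8:40862396-40922308 (plus strand), where the long non-coding gene Gm26584 overlaps it on the other strand. Ido1 lies on chr8:24584136-24597009 (minus strand). Gch1 (chr14:47153895-47189413, minus strand) holds 2 annotated processed pseudogenes within its span, and Acod1 lies on chr14:103046977-103056573 (plus strand). Promoter sequences of 2 of the 5 genes, Acod1 and Gch1, were in the RefSeq table (GRCm38.p6). They are shown because they were the ones in the table, and they come from a gene that was higher in every ICB tumor than in every PBS tumor (Acod1) and from one whose groups overlapped (Gch1). Each run covers 250 bases before and 50 after the RefSeq start, 5′ to 3′ on the gene's own strand (Acod1 chr14:103046762-103047061, plus strand, and Gch1 chr14:47189364-47189663, minus strand), and capitals mark motif matches.
Acod1: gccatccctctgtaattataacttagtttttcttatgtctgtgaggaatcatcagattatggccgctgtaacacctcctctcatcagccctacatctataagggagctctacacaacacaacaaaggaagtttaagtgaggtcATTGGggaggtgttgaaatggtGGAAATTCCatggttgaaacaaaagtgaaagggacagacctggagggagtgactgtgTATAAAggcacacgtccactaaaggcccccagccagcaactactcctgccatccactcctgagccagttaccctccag
Gch1: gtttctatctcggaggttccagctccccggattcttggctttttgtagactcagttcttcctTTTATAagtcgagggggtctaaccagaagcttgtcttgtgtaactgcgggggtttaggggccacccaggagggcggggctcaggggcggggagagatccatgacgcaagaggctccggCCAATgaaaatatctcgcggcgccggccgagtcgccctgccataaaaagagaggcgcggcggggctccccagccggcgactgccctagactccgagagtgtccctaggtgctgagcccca

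Letters of 6 motifs were searched on both strands. The TATA box letters TATAAA stood 28 bases before the Acod1 start on the gene's strand and 188 bases before the Gch1 start on the other strand, and 13.6% of the 32851 promoters in the table held them. CCAAT was found once in each promoter, 70 bases before the start in Gch1 and, on the other strand, 107 bases before the start in Acod1 (37.4% of all promoters). The RELA-type kappaB core GGAATTTCC was found in Acod1, on the other strand and 85 bases before the start, and not in Gch1, and 0.317% of all promoters held it. It was picked with the sequences in view. No match was found in either window for the interferon gamma-activated site TTCNNNGAA (8.30% of all promoters), the interferon-stimulated response element core GAAANNGAA (8.56%) or the C/EBP core TTGCNNAA (10.8%). None of these matches overlapped another. A match of letters is not a measured binding site.

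Total counts were 23541733 to 33950805 per tumor, so the floor of 3 counts lay at 0.0884 to 0.127 CPM (counts scaled to a common library size). Levels are given as CPM after normalization by TMM, and each tumor came from its own mouse. Of the mesothelial markers, Msln was abundant in PBS tumors (272 to 358 CPM), and Upk3b was at 0 in all ICB, 5-FU and 5-FU+ICB tumors. The tumor labelled 5-FU+ICB replicate 5 stood apart: its Msln level was 0.50 CPM, against 34.4 to 167 CPM in the other 4 tumors of its group, its 4 summed B cell markers reached 770 CPM against 13.4 to 29.97 CPM, and its 6 summed skeletal muscle markers reached 4522 CPM against 2.98 to 880 CPM. In cisplatin+ICB replicates 1 and 3 the 6 summed T cell markers were at 20.9 and 39.5 CPM, close to the PBS tumors (22.8 to 30.6 CPM) and below the other 3 tumors of that group (172 to 348 CPM). 5-FU+ICB replicate 2 held the least Ptprc of its group, a leukocyte gene (105 CPM, against 342 to 723 CPM), the lowest T cell sum (44.9 CPM, against 372 to 1333 CPM) and the most Msln (167 CPM). For the 5 genes, log2 fold changes that any single tumor of the fit moved by 1.5 times or more are given with the lowest and highest value over the fits that each left out 1 tumor. In RNA of a whole tumor, fewer cells of a type and less RNA per cell cannot be told apart.

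Nos2 was low in PBS tumors, at 0.933, 0.780, 2.93 and 1.40 CPM (mean 1.51 ± 0.981, SD, n = 4). In ICB tumors Nos2 stood at 166, 447, 234, 276 and 479 CPM (mean 320.3 ± 136.5, n = 5). The lowest ICB tumor lay far above the highest PBS tumor. 5-FU alone gave 6.58, 7.55, 19.7, 2.29 and 8.68 CPM, and cisplatin alone gave 2.63, 1.91, 1.61 and 1.42 CPM. The highest PBS tumor therefore lay above the lowest 5-FU tumor and above all cisplatin tumors. The 5-FU+ICB tumors held Nos2 at 108, 45.2, 82.6, 195 and 41.0 CPM. The cisplatin+ICB tumors held it at 1.22, 408, 6.54, 212 and 131 CPM, so that replicates 1 and 3 lay near the PBS range and the other 3 near the ICB range. The highest cisplatin+ICB tumor held 335 times the Nos2 of the lowest, against 2.88 times within the ICB group.

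Slc7a2, the arginine transporter, followed Nos2 in most tumors. Its PBS levels were 4.18, 8.48, 10.7 and 4.49 CPM, and its ICB levels were 147, 456, 127, 118 and 295 CPM. These groups did not overlap. 5-FU tumors held 19.0, 14.2, 32.4, 7.91 and 18.5 CPM, and cisplatin tumors held 30.3, 9.37, 12.2 and 11.4 CPM. Both overlapped the PBS group through their lowest tumor. With 5-FU+ICB the levels were 89.7, 23.6, 102, 135 and 49.6 CPM, and with cisplatin+ICB they were 25.5, 312, 37.1, 245 and 66.2 CPM. All 10 combination tumors lay above all 4 PBS tumors. The lowest cisplatin+ICB values were again replicates 1 and 3, but unlike Nos2 they stayed above every PBS tumor.

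Gch1 kept within a narrow range in most tumors. It was at 42.0, 56.0, 26.0 and 33.0 CPM with PBS and at 29.5, 37.2, 24.04, 33.3 and 29.5 CPM with ICB. The 2 groups overlapped. 5-FU tumors held 21.5, 29.4, 20.2, 23.2 and 21.8 CPM, cisplatin tumors 22.2, 38.6, 29.5 and 41.6 CPM, and 5-FU+ICB tumors 26.5, 34.7, 23.5, 27.6 and 17.4 CPM. In the cisplatin+ICB group Gch1 was at 125, 37.9, 21.2, 32.3 and 30.9 CPM, where the value of 125 CPM came from replicate 1 and the other 4 tumors lay within the span of the ICB and PBS tumors or just below it. Without that tumor the difference between cisplatin+ICB and cisplatin turned from 0.59 to -0.05 (log2 fold change).

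Ido1, the tryptophan enzyme, was the least counted of the 5, with 5 to 12 counts per PBS tumor. PBS levels were 0.203, 0.407, 0.289 and 0.166 CPM, and ICB levels were 4.84, 3.63, 4.93, 6.70 and 6.61 CPM. No ICB tumor overlapped a PBS tumor. 5-FU tumors held 0.932, 1.22, 1.25, 0.214 and 1.11 CPM, and cisplatin tumors held 0.969, 0.419, 0.101 and 0.415 CPM, of which cisplatin replicate 3 was at 3 counts, the floor. The 5-FU tumors lay above PBS in 4 of 5 cases. The combination with 5-FU gave 2.57, 2.82, 3.49, 2.91 and 10.6 CPM, with the highest Ido1 level of all 28 tumors in replicate 5. Cisplatin+ICB gave 0.424, 4.18, 1.15, 3.81 and 4.21 CPM, and replicate 1 lay just above the highest PBS tumor.

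Acod1, the itaconate enzyme, was at 1.95, 3.87, 4.66 and 2.19 CPM with PBS and at 124, 230, 190, 173 and 326 CPM with ICB. The groups were far apart. With 5-FU it was at 5.70, 12.9, 24.8, 1.74 and 14.0 CPM, and with cisplatin at 5.47, 4.99, 2.62 and 4.50 CPM. 5-FU replicate 4, which was the lowest 5-FU tumor for each of Nos2, Slc7a2, Ido1 and Acod1, lay below all PBS tumors for Acod1. The 5-FU+ICB tumors held 101, 29.4, 89.5, 96.4 and 31.8 CPM. The cisplatin+ICB tumors held 7.85, 169, 13.8, 164 and 100.2 CPM, with replicates 1 and 3 low as for Nos2 and Slc7a2.

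**Figure D1:**
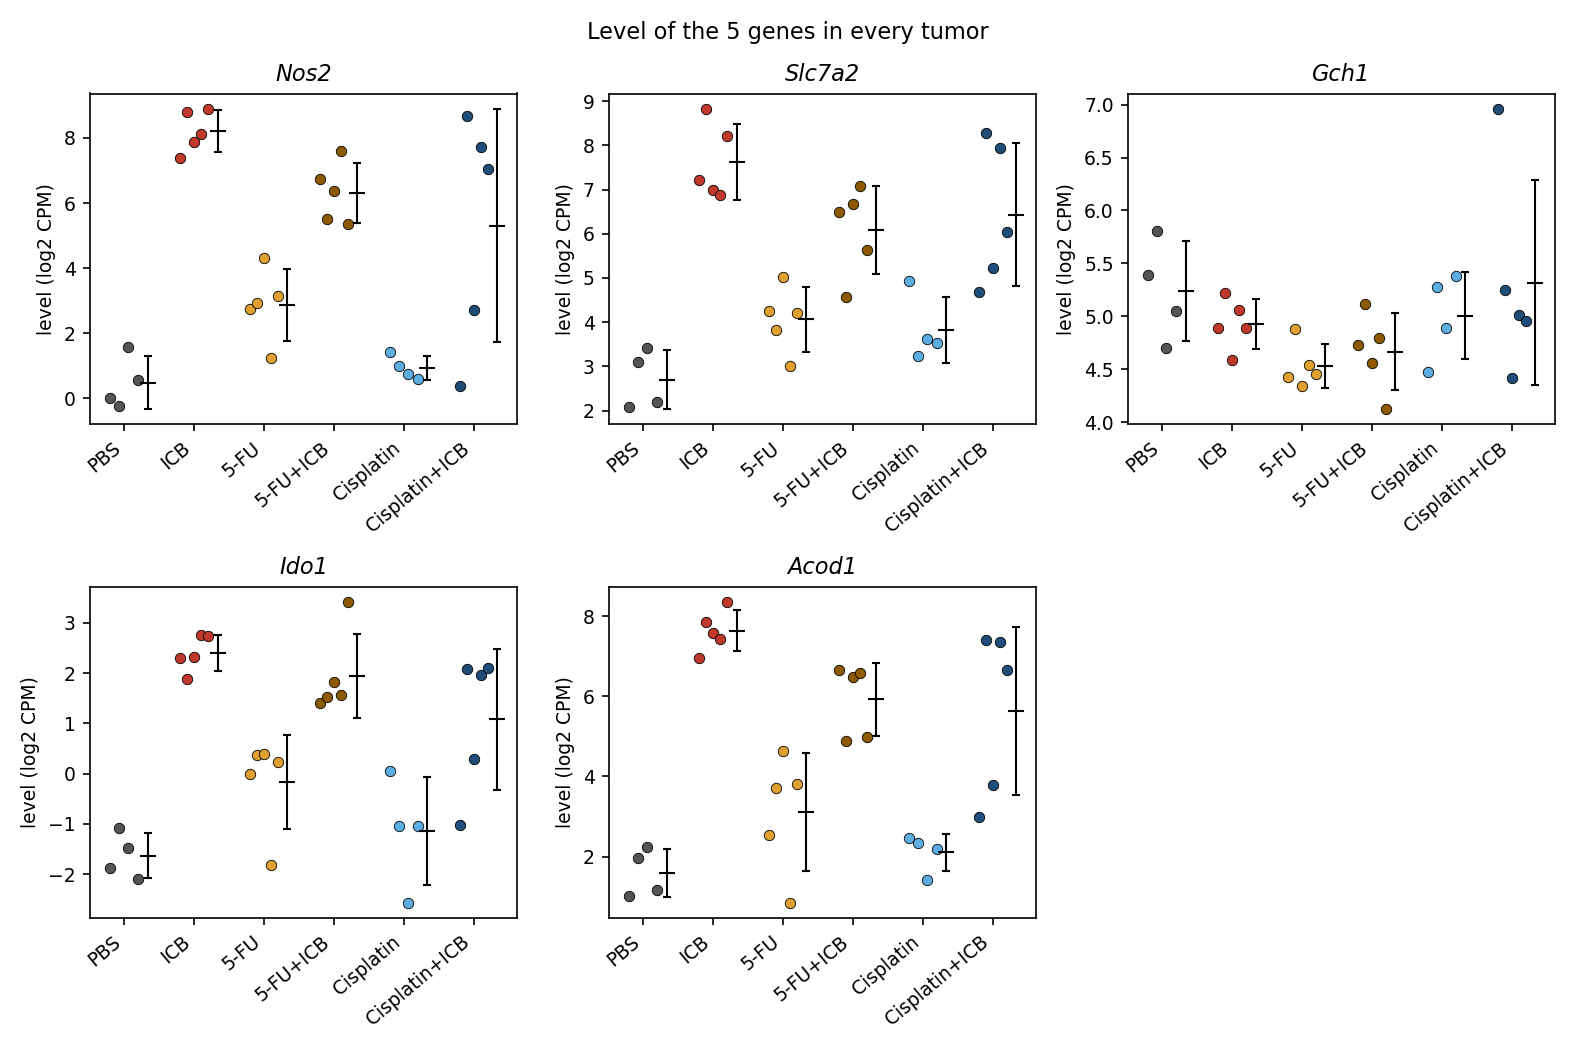
Level of the 5 genes in every tumor on the log2 CPM scale (vertical axes, prior count 2), by treatment group on the horizontal axis, with each point a tumor and the bar the mean and SD of its group. The ICB tumors lie above all PBS tumors for every gene but Gch1, and the cisplatin+ICB group is split for Nos2, where replicates 1 and 3 were at 1.22 and 6.54 CPM.

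The order of the mean log2 levels differed between genes. For Nos2 and Acod1 the order was ICB, 5-FU+ICB, cisplatin+ICB, 5-FU, cisplatin and PBS. The gap between ICB and 5-FU+ICB exceeded the pooled SD of the 2 groups for Nos2 (1.89 against 0.80, log2 CPM) and Acod1 (1.71 against 0.74), and the gap between 5-FU+ICB and cisplatin+ICB did not for either gene. Without cisplatin+ICB replicate 1 these 2 groups changed places for both genes, and the gap from ICB to the next group, then cisplatin+ICB, was 1.67 with a pooled SD of 1.92 for Nos2 and 1.33 with a pooled SD of 1.26 for Acod1. Cisplatin and PBS, the 2 lowest groups of both genes, lay within their pooled SD. Ido1 had the same order, and there the gap between ICB and 5-FU+ICB (0.45) was within the pooled SD (0.64). That rested on 5-FU+ICB replicate 5, and without it the gap for Ido1 was 0.82 with a pooled SD of 0.29. For Slc7a2 the groups with ICB came first, and the step from 5-FU+ICB down to 5-FU was 2.02 with a pooled SD of 0.88, while the step from cisplatin down to PBS was 1.13 with a pooled SD of 0.71. For Gch1 no neighbouring groups in the order differed beyond their pooled SD with all tumors kept. Without 5-FU+ICB replicate 5, the 5-FU+ICB and 5-FU groups did (0.27 against 0.22). The order was not computed with every tumor left out in turn, and leaving out other tumors can also bring a Gch1 gap beyond the pooled SD.

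For every gene but Gch1, ICB against PBS gave a wider difference than the other treatments did against PBS. The log2 fold change was 7.78 (SE 0.76) for Nos2, 6.07 (SE 0.71) for Acod1, 5.08 (SE 0.63) for Slc7a2 and 4.31 (SE 0.57) for Ido1, and -0.35 (SE 0.23) for Gch1, which ranged from -0.53 without PBS replicate 3 to -0.09 without PBS replicate 2. A gene counts as having passed the test in what follows when the quasi-likelihood test of edgeR gave it a p under 0.05 after Benjamini-Hochberg adjustment across the genes tested and its absolute log2 fold change was over 0.5. By that measure 37.8% of the 17916 genes tested passed between ICB and PBS, and 37.4% had groups that did not overlap, beside 4 of the 5 genes here on both counts. The genes were chosen on their levels across these groups. Nothing is therefore read from how many of them passed or did not overlap, here or in any comparison below.

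The chemotherapies alone gave smaller differences from PBS than ICB did for Nos2, Acod1, Slc7a2 and Ido1, and 5-FU gave a larger one for Gch1. With 5-FU the log2 fold change was 2.61 (SE 0.62) for Nos2, 1.92 (SE 0.59) for Acod1, 1.81 (SE 0.53) for Ido1 and 1.43 (SE 0.54) for Slc7a2, while it was -0.77 (SE 0.23) for Gch1, which ranged from -0.95 without PBS replicate 3 to -0.51 without PBS replicate 2. None of the 5 genes had 5-FU and PBS tumors apart (27.0% of all genes did), and 4 of the 5 passed the edgeR threshold beside 23.0% of all genes. Cisplatin against PBS gave 1.19 (SE 0.71) for Slc7a2, 0.84 (SE 0.67) for Ido1, 0.48 (SE 0.70) for Acod1, 0.33 (SE 1.04) for Nos2 and -0.25 (SE 0.43) for Gch1. All 5 values moved with single tumors. Slc7a2 ranged from 0.665 and Ido1 from 0.22, both without cisplatin replicate 1, to 1.47 without PBS replicate 3 and 1.165 without cisplatin replicate 3. Nos2 ranged from 0.11 without PBS replicate 2 and Acod1 from 0.30 without PBS replicate 1 to 0.86 and 0.72 without PBS replicate 3, and Gch1 from -0.42 without cisplatin replicate 4 to -0.03 without PBS replicate 2. None of the 5 passed or was free of overlap, and over all 17819 genes tested 0% passed, with 317 at an unadjusted p under 0.05, and 3.44% did not overlap.

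**Figure D2:**
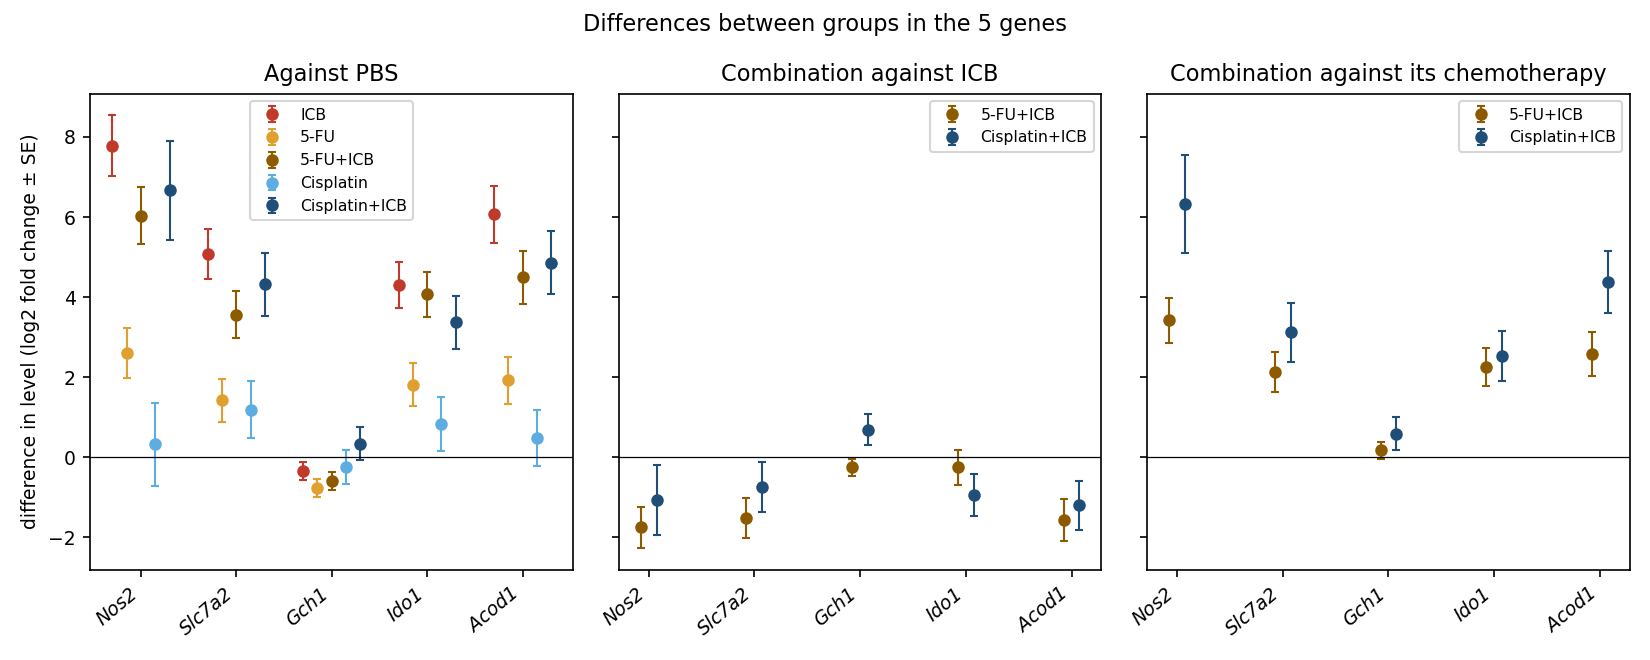
Difference in level between groups (vertical axis, log2 fold change with its SE from edgeR) for the 5 genes on the horizontal axis, against PBS on the left, for the combinations against ICB in the middle and against their chemotherapy on the right. Nos2 has the largest differences from PBS among the 5 genes with ICB (7.78), 5-FU+ICB (6.03) and cisplatin+ICB (6.67), and Gch1 stays within 0.77 of 0 in every panel.

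The combinations against PBS put Nos2 at 6.03 (SE 0.71) with 5-FU+ICB and 6.67 (SE 1.24) with cisplatin+ICB. The other differences with 5-FU+ICB were 4.49 for Acod1, 4.07 for Ido1, 3.57 for Slc7a2 and -0.60 for Gch1. Leaving out 5-FU+ICB replicate 5 put Ido1 at 3.46 and Gch1 at -0.487, and leaving out PBS replicate 2 put Gch1 at -0.345, both under the fold threshold, while leaving out PBS replicate 3 put it at -0.78. With 5-FU+ICB, 4 of the 5 genes did not overlap with PBS (25.5% of all genes) and all 5 passed the threshold (40.7% of all genes). With cisplatin+ICB the differences were 4.86 for Acod1, 4.32 for Slc7a2, 3.37 for Ido1 and 0.34 for Gch1, which was at -0.30 without replicate 1 and 0.56 without PBS replicate 2. There 3 of the 5 genes did not overlap with PBS (8.12% of all genes) and 4 passed the threshold (6.10% of all genes). These comparisons and that of ICB share the 4 PBS tumors.

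Each combination was also set against ICB. 5-FU+ICB tumors held less Nos2 (log2 fold change -1.75, SE 0.52), Acod1 (-1.57, SE 0.52) and Slc7a2 (-1.52, SE 0.49) than ICB tumors, with -0.25 for Ido1 and -0.25 for Gch1. Ido1 ranged from -0.86 without 5-FU+ICB replicate 5 to -0.10 without replicate 1, and Gch1 from -0.36 without replicate 2 to -0.14 without replicate 5. Acod1 had groups that did not overlap, which 2.33% of all genes had, and none of the 5 passed the threshold, which 0.229% of all genes did. For cisplatin+ICB against ICB the values were -1.19 for Acod1, -1.07 for Nos2, -0.94 for Ido1, -0.74 for Slc7a2 and 0.69 for Gch1. Nos2 ranged from -1.86 without cisplatin+ICB replicate 2 to -0.71 without replicate 1, and Slc7a2 from -1.29 without cisplatin+ICB replicate 2 to -0.32 without ICB replicate 2. Gch1 ranged from 0.03 without cisplatin+ICB replicate 1 to 0.88 without replicate 3. None of the 5 genes was free of overlap (1.48% of all genes) and none passed (0% of all genes, with 2839 at an unadjusted p under 0.05).

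Against its own chemotherapy, 5-FU+ICB gave 3.42 for Nos2, 2.57 for Acod1, 2.26 for Ido1, 2.14 for Slc7a2 and 0.17 for Gch1. Without 5-FU+ICB replicate 5 Ido1 was at 1.65 and Gch1 at 0.28, and without replicate 2 Gch1 was at 0.06. Groups did not overlap for 3 of the 5 genes (1.42% of all genes), and 0.0112% of all genes passed, none of them among the 5. Cisplatin+ICB against cisplatin gave 6.34 for Nos2, 4.38 for Acod1, 3.12 for Slc7a2, 2.53 for Ido1 and 0.59 for Gch1 (-0.05 without replicate 1 and 0.82 without cisplatin replicate 4), with 1 of the 5 genes free of overlap (3.35% of all genes) and none past the threshold (0% of all genes, with 2530 at an unadjusted p under 0.05). The interaction term, which is the difference from ICB with a chemotherapy minus the difference from PBS with it alone, was -4.36 (SE 0.80) for Nos2, -3.49 (SE 0.79) for Acod1, -2.94 (SE 0.73) for Slc7a2, -2.06 (SE 0.69) for Ido1 and 0.52 (SE 0.31) for Gch1 with 5-FU. Without 5-FU+ICB replicate 5 the Ido1 term was -2.67, and the Gch1 term ranged from 0.26 without PBS replicate 2 to 0.70 without PBS replicate 3. Of all genes 0.0893% passed it, 1 of the 5 among them. With cisplatin the term was -1.93 for Slc7a2, -1.78 for Ido1, -1.67 for Acod1, -1.40 for Nos2 and 0.93 for Gch1, and 0% of all genes passed (1273 at an unadjusted p under 0.05). Gch1 ranged from 0.28 without cisplatin+ICB replicate 1 to 1.16 without cisplatin replicate 4, Nos2 from -2.19 without cisplatin+ICB replicate 2 to -1.07 without replicate 1, and Ido1 from -2.11 without cisplatin replicate 3 to -1.17 without cisplatin replicate 1.

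The other genes of these pathways were counted from 5 lists with 104 genes, of which 99 were tested in the 5-FU tables and 98 in the cisplatin tables. Between ICB and PBS 39 rose and 19 fell, which is 58.6% of those tested beside 37.8% of all genes, and their median log2 fold change was 0.38 beside -0.03 for all genes. With 5-FU against PBS 15 rose and 20 fell (35.4%, beside 23.0% of all genes). Library totals in place of TMM gave 23 and 16 (beside 17.8% of all genes), and the fit of all groups joined gave fewer, as stated under processing. With 5-FU+ICB against PBS 39 rose and 23 fell (62.6%, beside 40.7%), or 40 and 25 without 5-FU+ICB replicate 5. Cisplatin+ICB against PBS gave 15 that rose and 1 that fell (16.3%, beside 6.10%). DESeq2 called 26 (26.5%, beside 12.1%), while the 2 groups fitted alone and the replicate block gave far fewer, as stated under processing. Without cisplatin+ICB replicate 1 the edgeR counts became 33 and 24, and without replicate 3 they were 20 and 1. Shares of all genes are not given for fits that left out a tumor and can change too, so those counts cannot be read beside one. With each tumor of the compared groups left out in turn, 45 of the 58 genes passed in every fit with ICB, 18 of the 35 with 5-FU, 49 of the 62 with 5-FU+ICB and 0 of the 16 with cisplatin+ICB. All 16 were lost without PBS replicate 1, 3 or 4, and the count was 4, 5 and 7 without cisplatin+ICB replicate 2, 4 and 5. The 35 with 5-FU became 23 without PBS replicate 1 or 2. Cisplatin against PBS gave 0 (2 at an unadjusted p under 0.05, and 0 by DESeq2).

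No pathway gene passed between the combinations and ICB or their chemotherapy, or in the interaction terms. At an unadjusted p under 0.05 there were 11 for 5-FU+ICB (11.1%, beside 10.9% of all genes) and 26 for cisplatin+ICB (26.5%, beside 15.9%) against ICB, and DESeq2 called 1 (1.83% of all genes) and 2 (0.292%). Against the chemotherapies the unadjusted counts were 34 for 5-FU+ICB (34.3%, beside 16.6%) and 27 for cisplatin+ICB (27.6%, beside 14.2%), and DESeq2 called 10 (10.1%, beside 3.01%) and 14 (14.3%, beside 4.39%). The interaction terms gave 44 for 5-FU (44.4%, beside 23.9%) and 14 for cisplatin (14.3%, beside 7.14%) at an unadjusted p under 0.05, and DESeq2 called 19 (19.2%, beside 8.61%) and 0. Single tumors decided some of these counts of 0, and the share of all genes in those fits is not given here. Without 5-FU+ICB replicate 2 or 5-FU replicate 3, 21 and 13 passed between 5-FU+ICB and 5-FU. Without cisplatin+ICB replicate 1 or 3, 26 and 10 passed between cisplatin+ICB and cisplatin. For the 5-FU interaction 18 passed without PBS replicate 3, 13 without PBS replicate 4, 8 without 5-FU+ICB replicate 4 and 3 without 5-FU replicate 4.

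**Figure D3:**
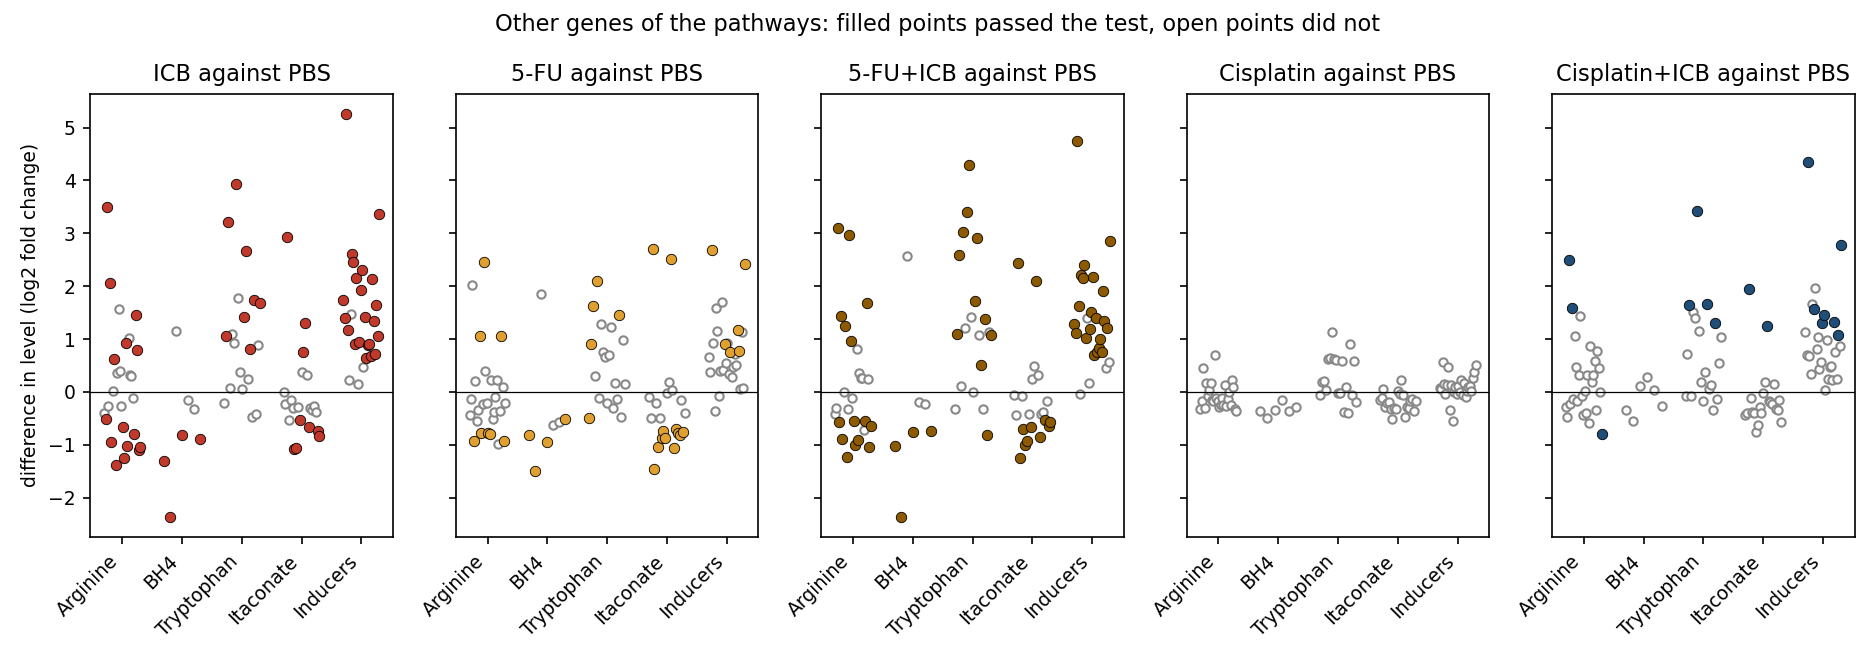
Difference from PBS (vertical axis, log2 fold change) of the other genes of the pathways, by list on the horizontal axis and by treatment in the 5 panels, with a point for each gene, filled where it passed the edgeR test. With ICB the inducers list has 22 of 26 filled points, all above 0, and the BH4 list has 4 of 7, all below 0.

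Among the arginine, nitric oxide and polyamine genes, 6 of 26 rose and 9 fell with ICB (57.7%, beside 37.8% of all genes). Those that rose included Ass1, which with Asl rebuilds arginine from citrulline, at 2.06 (SE 0.38, adjusted p = 0.000819), and Slc7a7, a transporter subunit for cationic amino acids, at 1.46 (SE 0.37). Those that fell included Ddah2, which breaks down methylated arginines, at -1.39 (SE 0.22), and the polyamine enzymes Odc1 at -1.26 (SE 0.21, adjusted p = 0.000442) and Sms at -1.09 (SE 0.22). Ass1 was at 49.1 ± 7.83 CPM (n = 4) in PBS and 201.8 ± 94.4 CPM (n = 5) in ICB tumors, which did not overlap. With 5-FU alone 3 rose and 5 fell (30.8%, beside 23.0%), among them Odc1 at -0.80 (adjusted p = 0.0121, and 0.0605 without PBS replicate 2) and Asl at -0.93 (adjusted p = 0.00189), and Ass1 was at 0.20 (adjusted p = 0.7). With cisplatin+ICB 2 rose, among them Ass1 (1.59, adjusted p = 0.0307), and Srm, the spermidine synthase, fell (-0.80, adjusted p = 0.0135). Together these were 11.5% of the list, beside 6.10% of all genes. Slc7a1, which encodes another cationic amino acid transporter, did not pass in any comparison with PBS and stood between -0.12 and 0.33.

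Nos1 and Nos3 encode the constitutive nitric oxide synthases. Nos1, the neuronal form, which skeletal muscle also makes, rose with 5-FU (2.46, SE 0.81, adjusted p = 0.0347) and 5-FU+ICB (2.97, SE 0.83, adjusted p = 0.00879), and with ICB it was at 1.57 (adjusted p = 0.119). With 5-FU it still passed in 4 of the 9 fits that each left out 1 tumor, and with 5-FU+ICB it was at 2.31 without replicate 5, where Nos1 reached 9.05 CPM. The summed skeletal muscle markers ranged over 102 to 172 CPM in PBS, 8.66 to 1378 CPM in 5-FU and 2.98 to 4522 CPM in 5-FU+ICB tumors. In edgeR 0 of 6 and 1 of 6 of them were higher than PBS (23.0% and 40.7% of all genes passed). Their part in the Nos1 result was not tested. Nos3, the endothelial form, rose with 5-FU+ICB (0.96, adjusted p = 0.0203), where 4 of 4 endothelial markers also rose (40.7% of all genes passed). It did not pass without replicate 5 (0.63, adjusted p = 0.0659), without PBS replicate 1 or without PBS replicate 2, nor with ICB (0.39, adjusted p = 0.321).

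In the BH4 list no gene rose and 4 of 7 fell with each of ICB, 5-FU and 5-FU+ICB (57.1%, beside 37.8%, 23.0% and 40.7% of all genes in either direction). With ICB they included Gchfr (-2.36, SE 0.41, adjusted p = 0.000622), which encodes the feedback regulator that binds the Gch1 enzyme, Spr (-0.90, SE 0.19, adjusted p = 0.00168), which makes the last step to BH4, and Pcbd2 (-0.81, SE 0.26), which did not pass without PBS replicate 2 or ICB replicate 2. With 5-FU Gchfr was at -1.505 (SE 0.40, adjusted p = 0.0148), and none of the 4 passed without PBS replicate 2. With library totals in place of TMM 2 of 7 fell with 5-FU (28.6%, beside 17.8% of all genes). Gchfr was at 13.1 ± 4.97 CPM (n = 4) in PBS and 2.54 ± 0.964 CPM (n = 5) in ICB tumors. Pts, the enzyme of the step between Gch1 and Spr, was at -0.14 (adjusted p = 0.69). In the cisplatin+ICB group no BH4 gene of 6 passed (beside 6.10% of all genes). There Gchfr, like Gch1, was highest in replicate 1, at 33.0 CPM against 2.55 CPM in the lowest tumor. Msln, a mesothelial marker, was also highest in that tumor, at 654 CPM against 131 to 266 CPM in the other 4. Where the BH4 genes fell Msln was lower too, at 52.0 to 217 CPM in ICB, 45.02 to 177 CPM in 5-FU and 0.50 to 167 CPM in 5-FU+ICB tumors against 272 to 358 CPM in PBS tumors, with no overlap. The mesothelial list as a whole did not follow Msln. Of 3 markers tested, 1 rose with ICB, 1 with 5-FU and 2 with 5-FU+ICB, and 1 fell, with 5-FU+ICB. Their median log2 fold change was 1.695 with ICB, 0.88 with 5-FU and 3.75 with 5-FU+ICB. The part of Msln in the BH4 values was not tested.

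With ICB 8 of 19 tryptophan and kynurenine genes rose and none fell, a share of 42.1% that was close to the 37.8% of all genes. Ahrr, a repressor and target of the aryl hydrocarbon receptor, was at 3.22 (SE 0.60), Kynu, which cleaves kynurenines, at 2.66 (SE 0.68, adjusted p = 0.0055), and Wars, the tryptophan-tRNA synthetase, at 1.68 (SE 0.20, adjusted p = 5.64e-05). The 2 other enzymes that open the tryptophan ring rose from low levels: Ido2 from 0.157 ± 0.0804 to 2.43 ± 0.805 CPM (3.94, adjusted p = 0.000259), and Tdo2 from 0.232 ± 0.0867 to 0.772 ± 0.219 CPM (1.73, adjusted p = 0.00489). Kmo, which hydroxylates kynurenine, was at 0.38 (adjusted p = 0.639). With 5-FU alone 4 rose and 1 fell (26.3%, close to the 23.0% of all genes), with Cyp1b1, another target of the receptor, at 2.10 (SE 0.56, adjusted p = 0.0515 without PBS replicate 2) and Wars at 0.14 (adjusted p = 0.609). With 5-FU+ICB 10 rose and 1 fell (57.9%, beside 40.7%), with the largest difference at Il4i1, which oxidises aromatic amino acids, at 4.29 (SE 1.10, adjusted p = 0.00554). Il4i1 stood at 218 CPM in the tumor with the highest level, 5-FU+ICB replicate 5, against a group median of 15.8 CPM, and that tumor had the highest summed B cell markers of all 28. Without it the Il4i1 difference was 2.23 (adjusted p = 0.0221). With cisplatin+ICB 4 rose (21.1%, beside 6.10% of all genes), among them Kynu (1.66, adjusted p = 0.0405) and Ido2 (3.42, adjusted p = 0.0119).

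Of the itaconate, aconitate and succinate genes, 3 of 21 rose and 6 fell with ICB, a share of 42.9% that was close to the 37.8% of all genes. The genes that rose were not Krebs cycle enzymes but Atf3 (2.93, SE 0.60), Nfkbiz (1.31, SE 0.49) and Nfe2l2 (0.76, SE 0.21), which encode transcription regulators known to respond to itaconate or its derivatives. Nfkbiz did not pass when any of the 9 tumors was left out (adjusted p up to 0.0933). Idh2 (-1.09, SE 0.25), Idh3a (-1.07, SE 0.19) and Suclg2 (-0.83, SE 0.16), enzymes of the cycle, were among those that fell. Sdha, the succinate dehydrogenase subunit that itaconate inhibits, was at 0.33 (adjusted p = 0.135). With 5-FU alone 2 rose and 10 fell (57.1%, beside 23.0%), and Clybl, which breaks down an itaconate product, was the lowest at -1.46 (SE 0.26). Clybl also fell with 5-FU+ICB (-1.24, SE 0.26). With cisplatin+ICB 2 rose, Atf3 (1.94) and Nfkbiz (1.24), and none fell (9.52%, near the 6.10% of all genes).

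Upstream genes were counted last. Of 26 cytokine, receptor and transcription factor genes, 22 rose with ICB, 21 with 5-FU+ICB, 7 with cisplatin+ICB and 6 with 5-FU, and none fell in any of the 4. The shares were 84.6% with ICB (37.8% of all genes), 80.8% with 5-FU+ICB (40.7%) and 26.9% with cisplatin+ICB (6.10%), while the 23.1% with 5-FU was, with TMM, at the level of all genes (23.0%). The count with 5-FU was 10 with DESeq2 size factors, for which the share of all genes is not given. With library totals in place of TMM it was 13 (50%, beside 17.8% of all genes), above the level of all genes. Ifng, the cytokine interferon gamma, was at 0.343 ± 0.0953 CPM (n = 4) in PBS and 13.1 ± 3.04 CPM (n = 5) in ICB tumors (5.26, SE 0.57, adjusted p = 2.44e-05). With 5-FU it was at 2.69 (SE 0.52, adjusted p = 0.00421). Tnf followed, at 3.36 (adjusted p = 0.000369) with ICB and 2.43 (adjusted p = 0.00574) with 5-FU. Irf1, which acts downstream of interferon gamma, rose with ICB (1.94) and did not pass with 5-FU (0.54, adjusted p = 0.0894). Il4ra, the receptor of interleukin 4 and 13, rose with ICB (0.94, adjusted p = 0.0052) and with 5-FU (0.90, adjusted p = 0.0139). The median log2 fold change of the inducers was 1.37 with ICB beside -0.03 for all genes.

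**Figure D4:**
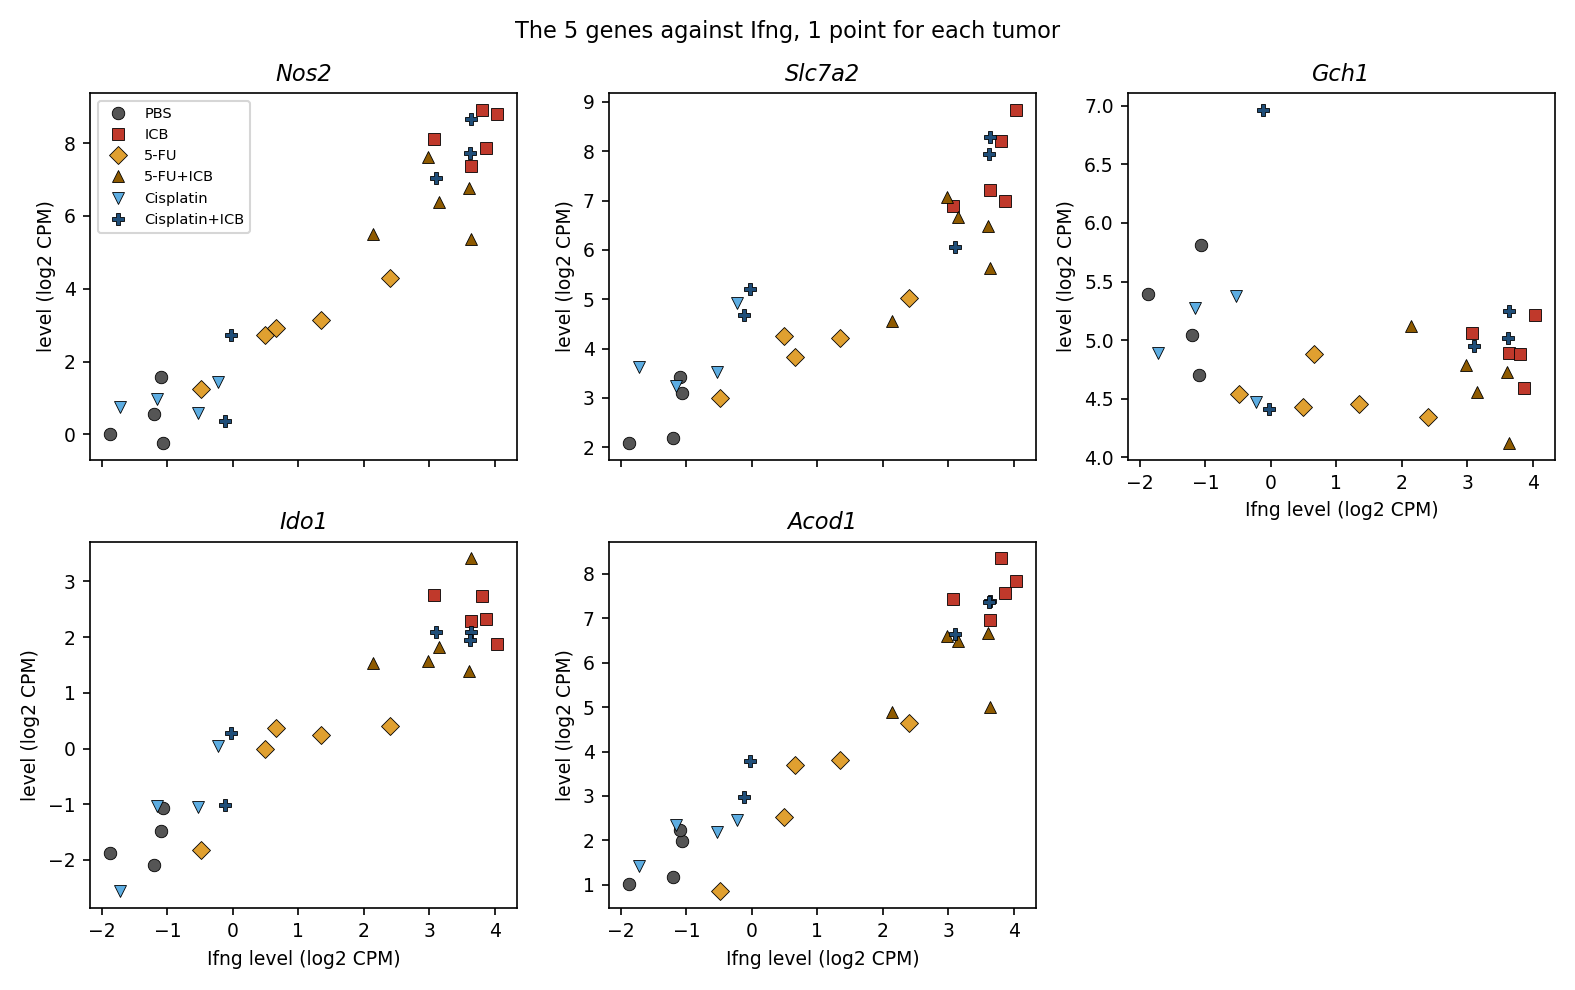
Level of the 5 genes (vertical axes, log2 CPM) against the level of Ifng in the same tumor (horizontal axes, log2 CPM), with a point for each tumor and a symbol for each group. Nos2, Slc7a2, Ido1 and Acod1 lie higher in tumors with more Ifng (Pearson's r of 0.91 to 0.96), and Gch1 does not (-0.26).

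The tumors fell into groups with and without ICB, so correlations over the 28 tumors are a description that shares the groups. Pearson's r with Ifng was 0.96 for Nos2 and for Acod1, 0.95 for Ido1, 0.91 for Slc7a2 and -0.26 for Gch1. With the group means subtracted it was 0.89 for Acod1, 0.85 for Nos2, 0.78 for Slc7a2, 0.77 for Ido1 and -0.35 for Gch1. For each of the 5 genes the SD of log2 CPM was largest in cisplatin+ICB (Nos2 3.58, against 0.37 to 1.10 in the other groups). That group therefore weighs most in the values with group means subtracted, and r without it was not computed. Within cisplatin+ICB, Ifng was at 0.848 and 0.913 CPM in replicates 1 and 3 and at 8.52 to 12.4 CPM in the other 3 tumors, the same split as for Nos2. Among the 5 genes themselves, Nos2 was closest to Acod1 (0.98, and 0.91 with group means subtracted) and far from Gch1 (-0.25 and -0.44).

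The genes most like each of the 5 were named by Pearson's r of log2 CPM over the 28 tumors. For Nos2 they were Acod1 (0.98), Cd274, which encodes PD-L1 (0.97), Hk3 (0.97), Il12rb1 (0.97) and Trafd1 (0.96). Acod1 shared Hk3 (0.98), Cd274 and Il12rb1 with that list, beside Nos2 and Tnfaip2 (0.96). Ido1 was closest to Tgtp1 (0.96), Serpina3f (0.95), Ifng (0.95), Cd274 (0.94) and Gbp10 (0.94), of which Tgtp1 and Gbp10 are interferon-inducible GTPase genes with close copies between which reads may be split. Slc7a2 was closest to A930007I19Rik (0.97) and Acod1 (0.95). Among those closest to Gch1 were Dhps (0.93), Rnh1 (0.93), Nufip1 (0.93) and Cryzl1 (0.92).

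Immune markers moved with Nos2, Slc7a2, Ido1 and Acod1 and not with Gch1. Over the 28 tumors Pearson's r of Gch1 was -0.35 with Ptprc and -0.43 with the T cell markers. It was 0.21 with the monocyte and with the neutrophil markers. Ptprc, the common leukocyte gene, was at 75.0 to 105 CPM in PBS and 245 to 443 CPM in ICB tumors. Between ICB and PBS 9 of 9 macrophage markers rose, with summed levels of 1659 to 2450 CPM in PBS and 3622 to 9942 CPM in ICB tumors, and 6 of 6 T cell markers rose. Of 6 neutrophil markers tested 3 rose, with sums of 9.33 to 18.6 CPM in PBS and 60.5 to 168 CPM in ICB tumors, and Ly6g, their defining marker, was at 0 in all PBS tumors. Of 7 dendritic cell markers 4 rose, with sums of 29.4 to 40.5 CPM in PBS and 130 to 514 CPM in ICB tumors. Of 5 monocyte markers 2 rose, with sums of 362 to 472 CPM and 391 to 623 CPM. Between ICB and PBS 37.8% of all genes passed in either direction, and the monocyte count was close to that share. With the group means subtracted, Pearson's r of Ido1 over the 28 tumors was 0.67 with the T cell, 0.59 with the dendritic cell and 0.43 with the macrophage markers. That of Acod1 was 0.70, 0.59 and 0.71. Both genes spread most widely in cisplatin+ICB, and r without that group was not computed. Relative to the mean log2 level of the macrophage markers in the same tumor, the difference between ICB and PBS was 5.94 for Nos2, 4.23 for Acod1, 3.12 for Slc7a2, 2.23 for Ido1 and -2.11 for Gch1. Relative to Ptprc these were 5.78, 4.07, 2.96, 2.07 and -2.27. The differences of Nos2, Acod1, Slc7a2 and Ido1 were thus smaller on both scales than per total RNA and kept their sign. With 5-FU 4 of 9 macrophage and 4 of 6 T cell markers rose (23.0% of all genes passed). There the differences relative to the macrophage markers were 1.55 for Nos2, 0.67 for Acod1, 0.63 for Ido1 and 0.53 for Slc7a2. With cisplatin+ICB 5 of 6 neutrophil markers rose, with sums of 36.6 to 110.1 CPM, and 2 of 9 macrophage markers did (6.10% of all genes passed). Between 5-FU+ICB and ICB none of 6 neutrophil and 9 macrophage markers passed (beside 0.229% of all genes). In 5-FU+ICB tumors neutrophil sums were 8.71 to 73.4 CPM and macrophage sums 1881 to 8578 CPM, both ranges reaching lower than in ICB tumors. Relative to the macrophage markers the difference between 5-FU+ICB and ICB was -1.365 for Nos2, -1.18 for Acod1 and -1.01 for Slc7a2, and the part of the neutrophil markers was not tested.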

How the data were processed

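RNA was taken from 28 whole AB1-HA tumors of 6 treatment groups and sequenced in bulk. The authors pseudoaligned the reads to GRCm38/mm10 with kallisto (0.46.0, with bcl2fastq 2.20.0.422 in the submitters' processing notes) and deposited tables of estimated counts per gene compiled with tximport, 1 for the 5-FU groups and 1 for the cisplatin groups, which share the PBS and ICB tumors. The strand setting was not given in the sources used here, and 23.7% of the deposited values were not whole. Of 55341 genes 18393 were at 0 in every tumor.

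Estimated counts were rounded and fitted per table, with all 4 of its groups, in edgeR 4.0.16 (filterByExpr, TMM, quasi-likelihood test; R 4.3.3), and p-values were adjusted by Benjamini-Hochberg over all genes tested. A gene passed when its adjusted p was under 0.05 and its log2 fold change was beyond 0.5 in size. SE is the absolute log2 fold change divided by the square root of the F statistic. CPM used TMM over the 28 tumors together, and log2 CPM a prior count of 2. DESeq2 1.42.0 was an alternative, as were DESeq2 size factors, library totals alone, no filter, the replicate number as a block, only the 2 groups compared, all 6 groups joined, other references and prior counts, and each tumor left out. The edgeR procedure was tested on simulated data. ICB against PBS came from the 5-FU table. Floors of 3 counts cover counting error only, and p-values measure the spread between tumors of 1 experiment.

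Members and lists were chosen with earlier results of these data known. Of the 6 genes chosen 1 is not reported here, nor are some genes of the lists and of the likeness ranking by name, though counts over the lists include them. Named genes were the members, the 3 called genes of each list with the largest difference in each direction and a mean count of at least 50, a fixed set of pathway genes, and the 5 genes most like each member. Of the lists' genes, Otc, Agmat, Aadat, Acmsd and Cyp1a1 did not pass the filter in either table, nor Pcbd1 in the cisplatin table. Symbols were matched to GENCODE M21 (55315 of 55339 distinct names).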

Additional observations from a re-analysis of the deposited data

Results flagged for a closer look

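Of 30 sets of values (5 genes in 6 groups), 2 held a tumor whose gap to the nearest other tumor, as a share of the group's range in log2 CPM, exceeded Dixon's critical value of 0.71 for 5 tumors. Chance gives such a gap in about 1 in 20 groups. Over 25 pathway, cytokine and leukocyte genes the count was 17 of 150 sets, a larger share. Both sets among the 5 genes were for Ido1. In the 5-FU group replicate 4 was low, with a gap of 0.822 of the range: it held 0.214 CPM and the other 4 tumors 0.932 to 1.25 CPM. In the 5-FU+ICB group replicate 5 was high, with a gap of 0.786 of the range: it held 10.6 CPM and the other 4 tumors 2.57 to 3.49 CPM. That tumor also had the lowest Msln and the highest summed B cell markers of its group, and the part of these in its Ido1 level was not tested.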

How the results depend on the processing

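The log2 fold changes of the 5 genes stayed within 1 SD of the spread between tumors, in 55 of 55 values each, under the DESeq2 test, DESeq2 size factors, library totals alone, no filter, the replicate block and the joined fit, and in 45 of 45 with the 2 groups alone or another prior count. That SD is a wide limit in some groups (3.58 on the log2 scale for Nos2 in cisplatin+ICB), so staying within it says little there. With single tumors left out, Gch1 ranged over -0.048 to 0.82 for cisplatin+ICB against cisplatin and 0.28 to 1.16 for the cisplatin interaction. The counts of pathway genes ranged over 23 to 39 for 5-FU against PBS, 0 to 57 for cisplatin+ICB against PBS, 0 to 21 for 5-FU+ICB against 5-FU, 0 to 26 for cisplatin+ICB against cisplatin and 0 to 18 for the 5-FU interaction. DESeq2 called 26 for cisplatin+ICB against PBS, 1 for 5-FU+ICB and 2 for cisplatin+ICB against ICB, 10 for 5-FU+ICB against 5-FU, 14 for cisplatin+ICB against cisplatin and 19 for the 5-FU interaction. Library totals alone gave 2 for the 5-FU interaction, the 2 groups alone gave 0 for cisplatin+ICB against PBS, and the joined fit gave 14 for 5-FU against PBS and 2 for cisplatin+ICB against cisplatin. Same-numbered tumors shared only a number (correlations of their deviations from -0.629 to 0.665, not over 0.1 in every pair of any comparison). The replicate block gave 2 pathway genes for cisplatin+ICB against PBS and left the other 10 counts within 1.5 times. Library totals alone shifted the median of all genes by 0.125 for 5-FU and 0.14 for cisplatin against PBS, -0.163 for 5-FU+ICB against 5-FU and -0.175 for the 5-FU interaction, and no filter by 0.102 and -0.119 for 5-FU against PBS and its interaction. For 5-FU against PBS 1788 genes were higher and 2327 lower, and 2005 and 1192 with library totals alone. The causes were not tested. Counts of 5 to 12 per PBS tumor limit Ido1.

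Relative to Ptprc, values that moved by over 1 SD were, for ICB against PBS, Nos2 5.78, Slc7a2 2.96, Gch1 -2.27, Ido1 2.07 and Acod1 4.07. For 5-FU against PBS they were Nos2 1.45, Slc7a2 0.42, Gch1 -1.66, Ido1 0.52 and Acod1 0.56. For 5-FU+ICB against PBS they were Nos2 3.95, Slc7a2 1.49, Gch1 -2.47, Ido1 1.69 and Acod1 2.43. For cisplatin+ICB against PBS they were Nos2 3.56, Slc7a2 2.46, Gch1 -1.19, Ido1 1.44 and Acod1 2.77. For 5-FU+ICB against 5-FU they were Slc7a2 1.07, Gch1 -0.81 and Ido1 1.17. For cisplatin+ICB against cisplatin they were Nos2 3.35, Slc7a2 1.58, Gch1 -0.71, Ido1 1.21 and Acod1 2.51. Relative to the macrophage markers, values that moved by over 1 SD were, for ICB against PBS, Nos2 5.94, Slc7a2 3.12, Gch1 -2.11, Ido1 2.23 and Acod1 4.23. For 5-FU against PBS they were Nos2 1.55, Slc7a2 0.53, Gch1 -1.55, Ido1 0.63 and Acod1 0.67. For 5-FU+ICB against PBS they were Nos2 4.57, Slc7a2 2.12, Gch1 -1.84, Ido1 2.31 and Acod1 3.05. For cisplatin+ICB against PBS they were Slc7a2 2.99, Gch1 -0.67, Ido1 1.97 and Acod1 3.29. For 5-FU+ICB against ICB it was Gch1 0.27. For cisplatin+ICB against ICB it was Gch1 1.44. For 5-FU+ICB against 5-FU it was Gch1 -0.30. For cisplatin+ICB against cisplatin they were Nos2 3.57, Slc7a2 1.81, Gch1 -0.49 and Acod1 2.73. The difference of Gch1 for cisplatin+ICB against cisplatin turned its direction on both scales. So did differences under 0.5 in size: Gch1 for cisplatin+ICB against PBS and for 5-FU+ICB against 5-FU on both scales, and Gch1 and Ido1 for 5-FU+ICB against ICB relative to the macrophage markers. Of 45 values, 17 stayed within 1 SD relative to Ptprc and 19 relative to the macrophage markers.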
